A study of Mus musculus with 14 samples.

Results

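Polycomb repressive complex 2 (PRC2) is the enzyme complex that places the repressive mark H3K27me3 on chromatin, and 5 of its genes, Ezh2, Eed, Suz12, Jarid2 and Mtf2, were followed across mouse pluripotent cells and germ cells. They were chosen by gene symbol, taking every probe that the array annotation assigns to one of them. This gave 7 probes of 5 genes, out of 23978 probes with 1 gene covering 16593 genes on the array. Ezh2 has 3 probes, ILMN_1234171, ILMN_2606429 and ILMN_2988572, and each other gene has 1.

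The complex keeps many developmental regulator genes silent in pluripotent cells. Ezh2 is its methyltransferase, Eed binds the mark and is needed for activity, and Suz12 is the scaffold that holds the enzyme together, so these 3 form the core. Mtf2 and Jarid2 are accessory subunits that belong to alternative forms of the complex and help bring it to CpG-rich DNA. PRC2 is known for its part in the differentiation of embryonic stem cells and in the chromatin of germ cells.

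The data are transcript levels in C57BL mouse cells, read on 14 Illumina bead arrays with 1 colour each and falling into 8 groups. The hypoxia-induced embryonic germ-like (hiEGL) lines hiEGL2 and hiEGL1, the only groups labelled as cultured in hypoxia, gave 2 arrays each. Embryonic germ (EG) cells, pluripotent cells derived from primordial germ cells, gave 2 arrays. Primordial germ cells (PGC11.5), taken 11.5 days post coitum and labelled as unipotent, gave 2. Epiblast stem cells (EpiSC), a primed pluripotent state, gave 1 array for line EpiT9 and 1 for line EpiE3. Embryonic stem cells (ESC), a naive pluripotent state, gave 2 arrays for the female ESCf and 2 for the male ESCm. These last 4 samples are ESC by their titles and the design but embryonic germ cells by their cell type label, and here they are called ESC. Oxygen level, medium, feeder cells and any allele or transgene were not given in the sources. The labels do not say whether replicate arrays came from separate cultures or animals, and each p-value here rests on a spread between arrays that may be technical.

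The 6 hiEGL and EG arrays stood apart from the other 8 in which probes they detected, detection meaning a detection p under 0.01. On the table of all probes, 854 were detected on none of the 6 yet on each of the other 8, and 49 showed the reverse. The share of probes detected was 29.8% to 45.4% per array. The correlation within a pair of replicate arrays was r = 0.993 to 0.997, but 0.950 for PGC11.5. Comparisons were therefore first made within each set of arrays, and those between hiEGL or EG cells and the other groups are given last, since the array set and the cell type cannot be told apart there. Most of the defining markers were detected in the cell types they define, but many were detected in others too. All 8 core and naive pluripotency markers were detected on every EG and ESC array. Of these, Sox2 and Zfp42 were detected on neither hiEGL1 array, Tbx3 and Zfp42 on neither hiEGL2 array, and Tbx3 on neither EpiSC array. All 6 primed epiblast markers were detected on both EpiSC arrays, and 6 of 7 germ cell markers on both PGC11.5 arrays, Mael being the exception. Primed markers detected on all arrays of a group numbered 5 in EG, 5 in ESCf, 3 in ESCm, 2 in PGC11.5, 2 in hiEGL1 and 1 in hiEGL2. Germ cell markers so detected numbered 5 in ESCm, 4 in ESCf, 4 in hiEGL1, 3 in hiEGL2, 3 in EG, 3 in EpiT9 and 2 in EpiE3.

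The promoters of the 4 members whose probes were detected on arrays of both sets are shown because the comparisons that follow rest on their transcripts. The sequences are from RefSeq on build GRCm38.p6, from 250 bases before to 50 after a transcript start, 5′ to 3′ on the strand of the gene. RefSeq's table held promoters for all 5 genes, 7 in total with a second start for Mtf2 and for Jarid2, and the first listed start is printed. Capitals mark the letters of 2 motifs searched on both strands, an E2F-type site, spelled TTTGGCGC, TTTCCCGC, TTTGCCGC or TTTCGCGC, and CCAAT, which reads ATTGG where the match lies on the other strand. No match overlapped another.
Ezh2 (chr6:47594981-47595280, minus strand): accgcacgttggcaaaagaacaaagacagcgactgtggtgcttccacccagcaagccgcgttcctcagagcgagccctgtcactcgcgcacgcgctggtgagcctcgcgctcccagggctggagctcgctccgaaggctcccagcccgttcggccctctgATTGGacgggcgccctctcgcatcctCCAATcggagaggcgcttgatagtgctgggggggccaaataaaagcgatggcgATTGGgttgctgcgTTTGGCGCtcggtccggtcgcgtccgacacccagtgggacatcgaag
Eed (chr7:89980927-89981226, minus strand): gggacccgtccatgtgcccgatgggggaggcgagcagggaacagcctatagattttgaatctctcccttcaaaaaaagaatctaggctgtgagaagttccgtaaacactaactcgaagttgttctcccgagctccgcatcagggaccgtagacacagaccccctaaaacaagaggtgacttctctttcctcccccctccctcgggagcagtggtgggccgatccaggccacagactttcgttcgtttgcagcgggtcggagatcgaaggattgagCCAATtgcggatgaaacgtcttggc
Suz12 (chr11:79992856-79993155, plus strand): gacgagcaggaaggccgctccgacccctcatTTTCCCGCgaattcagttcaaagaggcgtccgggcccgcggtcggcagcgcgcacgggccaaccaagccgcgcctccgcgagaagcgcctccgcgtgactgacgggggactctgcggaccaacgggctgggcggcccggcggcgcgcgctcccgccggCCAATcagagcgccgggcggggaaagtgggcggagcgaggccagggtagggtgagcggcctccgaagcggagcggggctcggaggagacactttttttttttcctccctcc
Mtf2 (chr5:108065424-108065723, plus strand): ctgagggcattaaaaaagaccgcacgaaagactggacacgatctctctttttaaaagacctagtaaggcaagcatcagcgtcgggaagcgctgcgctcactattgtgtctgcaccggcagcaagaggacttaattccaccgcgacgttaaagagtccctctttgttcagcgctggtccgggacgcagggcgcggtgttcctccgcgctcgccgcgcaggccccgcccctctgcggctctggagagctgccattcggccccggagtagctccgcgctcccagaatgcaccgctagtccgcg

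E2F factors drive genes needed for DNA replication, and CCAAT is the letter pattern bound by NF-Y. Ezh2 held TTTGGCGC starting at position 4 after the start site and Suz12 held TTTCCCGC starting at position -219, where such a match was found in 2.26% of 32851 promoters in the table. Ezh2 held 3 CCAAT matches, Eed 1, Suz12 1 and the printed Mtf2 promoter 0, and 37.4% of all promoters held at least 1. The windows held more CpG dinucleotides than most, with 31 in Ezh2, 17 in Eed, 41 in Suz12 and 30 in Mtf2, against a median of 7 over all promoters. A match is a description of letters and was not tested as a binding site.

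Levels are log2 intensities after background correction and quantile normalization, so a difference of 1 is a 2-fold change, and values near 4.5 lie at background. Levels of different probes cannot be set against each other.

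**Figure D1:**
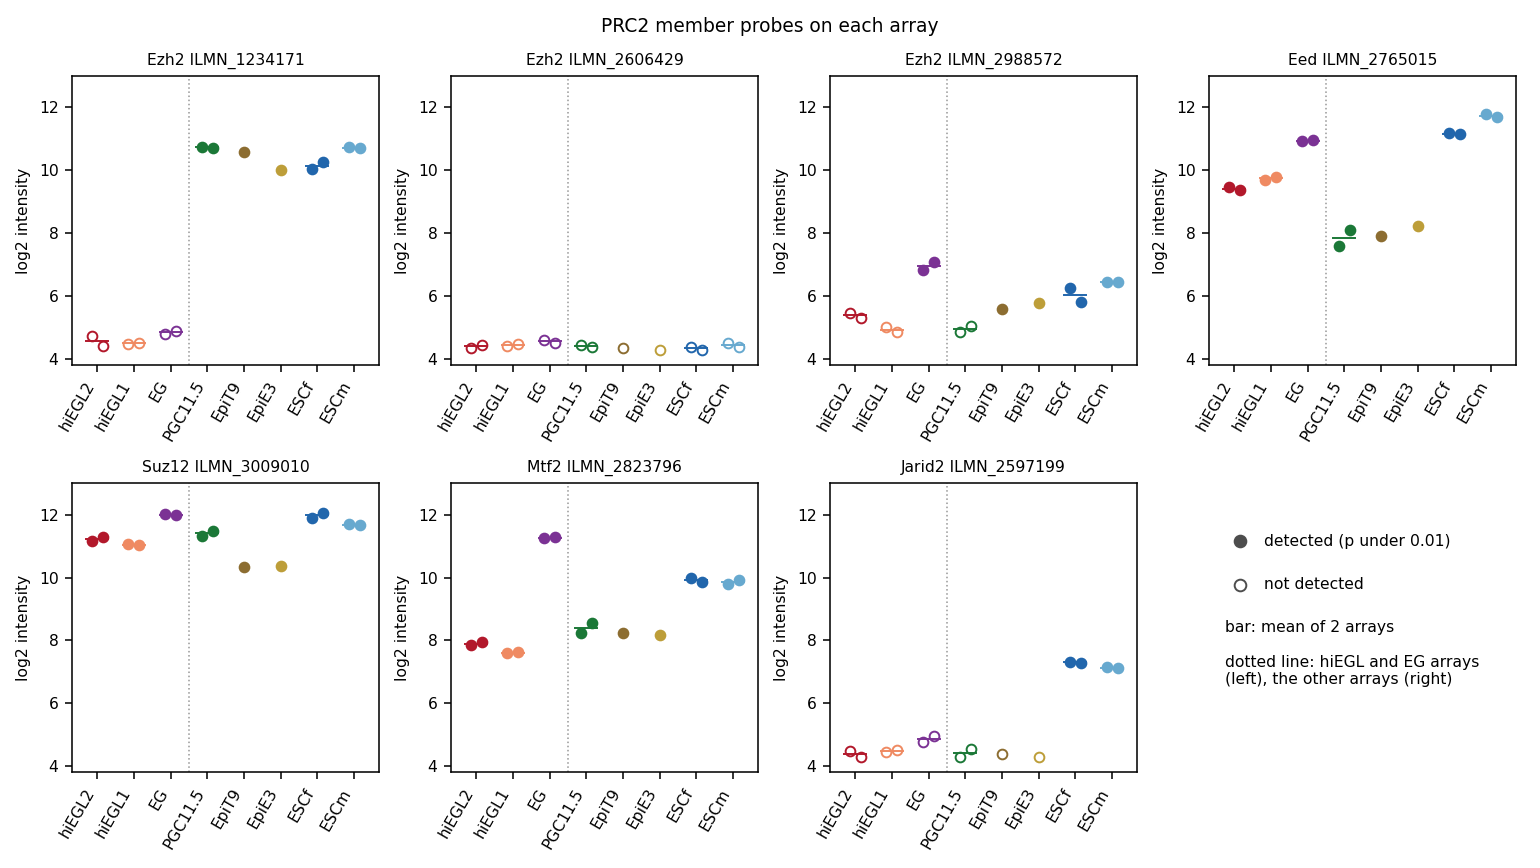
Log2 intensity (y axis) of all 7 probes on every array, by group (x axis), with filled points for detected and open points for undetected probes, bars for the mean of 2 arrays and a dotted line between the hiEGL and EG arrays on the left and the other arrays on the right. Mtf2 stood at 11.28 on both EG arrays and at 7.61 to 7.96 on the 4 hiEGL arrays, and the Jarid2 probe was detected on the 4 ESC arrays alone.

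Ezh2, the methyltransferase, gave different pictures from its 3 probes. ILMN_1234171 read 4.74 and 4.40 in hiEGL2, 4.48 and 4.51 in hiEGL1, and 4.79 and 4.89 in EG, undetected on all of these arrays. It read 10.74 and 10.72 in PGC11.5, 10.58 in EpiT9, 9.9998 in EpiE3, 10.04 and 10.25 in ESCf, and 10.74 and 10.71 in ESCm. Among the 8 arrays that detected it, the widest gap between the nearest arrays of groups that neighbour in the order of means was 0.33, between EpiT9 and ESCf. The largest spread within a pair of replicate arrays for this probe was 0.34, in hiEGL2, where it was undetected. ILMN_2988572 was dim where it was detected. It read 5.47 and 5.30 in hiEGL2 and 4.99 and 4.87 in hiEGL1, undetected, and 6.82 and 7.06 in EG, detected. It was also undetected in PGC11.5, at 4.85 and 5.03, and was detected at 5.57 in EpiT9, 5.78 in EpiE3, 6.27 and 5.80 in ESCf, and 6.45 and 6.46 in ESCm. No gap between neighbouring groups of this probe, measured between their nearest arrays here and below, exceeded 0.46, the spread between the ESCf arrays. ILMN_2606429 was detected on no array, at 4.26 to 4.61, and was not tested.

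Eed, which binds the mark, was detected on every array. It read 9.47 and 9.37 in hiEGL2, 9.71 and 9.78 in hiEGL1, and 10.93 and 10.96 in EG. It read 7.57 and 8.09 in PGC11.5, 7.90 in EpiT9, 8.22 in EpiE3, 11.18 and 11.15 in ESCf, and 11.78 and 11.68 in ESCm. The arrays formed 3 levels, ESC and EG at the top, hiEGL in the middle, and PGC11.5 and EpiSC at the bottom. This order spans both sets of arrays, so array set and cell type cannot be told apart in it. Gaps within each level lay inside the largest pair spread, 0.52 for the PGC11.5 arrays, though the one between ESCm and ESCf came near it at 0.51, while each of the gaps between levels was 1.15.

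Suz12, the scaffold, was also detected on every array. It read 11.16 and 11.30 in hiEGL2, 11.06 and 11.05 in hiEGL1, and 12.02 and 11.99 in EG. It read 11.33 and 11.50 in PGC11.5, 10.35 in EpiT9, 10.37 in EpiE3, 11.90 and 12.07 in ESCf, and 11.71 and 11.67 in ESCm. Both EpiSC lines were lowest, 0.68 below the nearest array of the next group against a largest pair spread of 0.18. EG and ESCf were highest and did not differ beyond that spread, and ESCm followed at a gap of 0.19. The place of EG and hiEGL in this order crosses the divide between the sets of arrays. With scaling of the arrays in place of quantile normalization, the difference of EG from ESC was -0.29.

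Mtf2, an accessory subunit, was detected on every array. It read 7.85 and 7.96 in hiEGL2, 7.61 and 7.62 in hiEGL1, and 11.28 and 11.28 in EG. It read 8.24 and 8.54 in PGC11.5, 8.23 in EpiT9, 8.18 in EpiE3, 9.99 and 9.86 in ESCf, and 9.80 and 9.94 in ESCm. EG stood alone at the top, 1.29 above the nearest ESC array, and ESC stood 1.26 above the nearest of the remaining arrays. PGC11.5, EpiSC and hiEGL followed with no gap beyond the largest pair spread of 0.30. The place of EG and hiEGL among the other groups again mixes array set with cell type.

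Jarid2, an accessory subunit, was detected in ESC alone. It read 4.49 and 4.30 in hiEGL2, 4.45 and 4.50 in hiEGL1, 4.78 and 4.97 in EG, 4.29 and 4.54 in PGC11.5, 4.39 in EpiT9 and 4.28 in EpiE3, undetected on all of these arrays. It read 7.32 and 7.29 in ESCf and 7.14 and 7.12 in ESCm.

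The comparison of hiEGL with EG cells addressed how near the hypoxia-derived lines came to established embryonic germ cells. The 4 member probes that could be measured were lower in hiEGL cells, while other PRC2 genes, given further below, moved in both directions. Mtf2 was 11.5-fold lower (log2 difference -3.52 ± 0.10 SE, adjusted p = 2.8e-09), with both hiEGL lines more than 3 log2 units below both EG arrays. Eed was 2.58-fold lower (-1.36 ± 0.12, adjusted p = 4.1e-06) and Suz12 1.82-fold lower (-0.86 ± 0.07, adjusted p = 2.6e-06). Ezh2 probe ILMN_2988572, detected in EG cells and on no hiEGL array, was at least 2.00-fold lower (fitted difference -1.79 ± 0.16, adjusted p = 5.3e-06). For all 4 probes, every one of the 4 hiEGL arrays lay below both EG arrays. The same held for Ezh2 ILMN_1234171, Ezh2 ILMN_2606429 and Jarid2, undetected in both cell types, so such a separation also occurs at background. The share of all probes that separate so was not counted, here or in the comparisons below. A lower level in a culture can reflect fewer cells of a type or less RNA per cell, which cannot be told apart in bulk samples.

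In all, 6 of 6 tested member probes were called lower, against 30.7% of all 12404 probes tested. The called pair beside the 4 above, Ezh2 ILMN_1234171 (-0.31 ± 0.11, adjusted p = 0.037) and Jarid2 (-0.44 ± 0.13, adjusted p = 0.014), lay below background in both cell types and gives no fold. The sign of that pair turned under scaling of the arrays in place of quantile normalization, to 0.45 and 0.38. Both calls were lost with a random block for the line (adjusted p = 0.52 and 0.21). That left 4 of 6, against 29.8% of all probes called in either direction. The median difference of the 6 probes was -1.11, against -0.04 over all probes tested. The ILMN_2988572 difference was -0.73 without background correction, -1.09 with scaling and -2.49 on the authors' values.

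Each hiEGL line was also set against EG by itself. In hiEGL1 against EG, 6 of 6 probes were called lower (28.1% of all probes), with Mtf2 12.7-fold, Eed 2.30-fold and Suz12 1.93-fold lower. In hiEGL2 against EG, 5 of 6 were called lower (29.9% of all probes), with Mtf2 10.4-fold, Eed 2.88-fold and Suz12 1.71-fold lower. ILMN_2988572 was at least 2.14-fold lower in hiEGL1 and at least 1.88-fold lower in hiEGL2 than in EG, and the hiEGL2 call was lost under scaling (-0.67, adjusted p = 0.105). Between the lines, hiEGL2 against hiEGL1, none of the 6 probes was called (25.5% of all probes were). The limma adjusted p was 0.092 to 0.80 for these 6, and the 95% intervals of the log2 difference were 0.04 to 0.53 for Mtf2, -0.63 to -0.01 for Eed and -0.01 to 0.36 for Suz12. In a fit to those 4 arrays alone, 4 of the 6 probes were called, against 42.7% of all probes. These were Mtf2 (0.28, adjusted p = 0.032), Suz12 (0.18, adjusted p = 0.048) and Ezh2 ILMN_2988572 (0.45, adjusted p = 0.034) higher and Eed (-0.32, adjusted p = 0.0030) lower in hiEGL2.

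**Figure D2:**
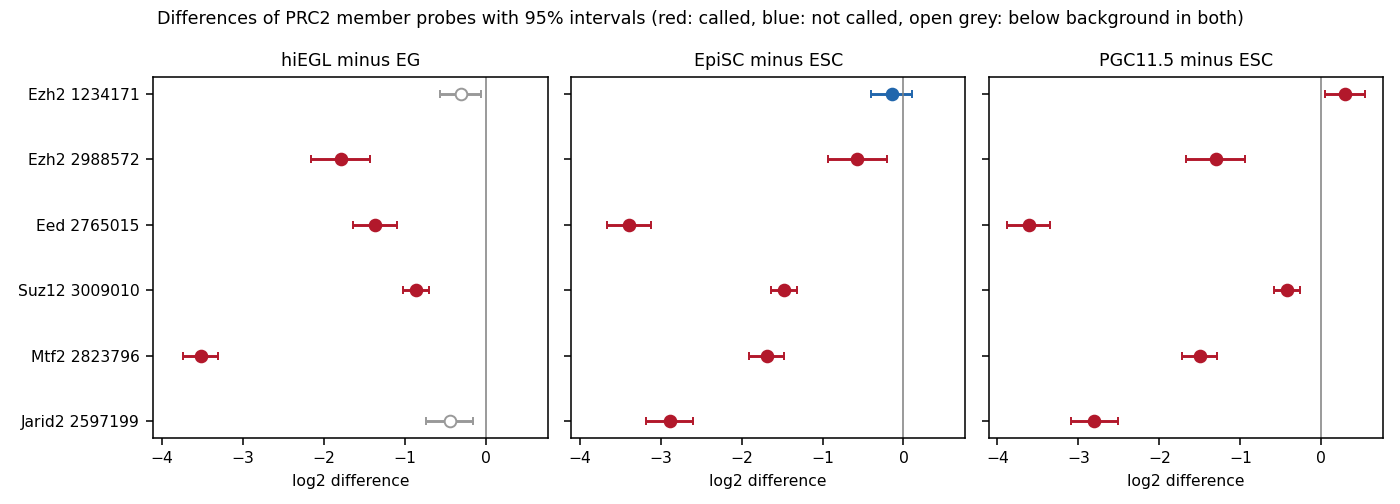
Log2 differences (x axis) with 95% intervals for the 6 tested probes (rows) in hiEGL minus EG, EpiSC minus ESC and PGC11.5 minus ESC. Red points were called, blue were not, and open grey points lay below background in both cell types. Mtf2 differed by -3.52 in hiEGL minus EG, and Eed by -3.39 in EpiSC minus ESC and -3.61 in PGC11.5 minus ESC.

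Other genes moved beside these. Of 10 fibroblast markers tested, 9 were higher in hiEGL than in EG cells, where 61.1% of all genes tested were called in either direction. The summed intensity of the list was 13515 to 15394 on the hiEGL arrays against 1503 to 1558 on the EG arrays, with Postn detected on none of them. The 3 gonadal somatic markers tested, Pdgfra, Wt1 and Sox9, were all higher, with a summed list of 3327 to 3865 against 263 to 280, while Gata4, Amh, Nr5a1, Star, Inha, Foxl2 and Lhx9 were detected on no hiEGL and no EG array. All 8 core and naive pluripotency markers were lower in hiEGL, and so were all 6 primed epiblast markers, 1 of them below background in both, with a summed list of 311 to 496 against 2618 to 2694. Of 6 germ cell markers tested, 4 were higher and 1 lower, with a summed list of 9798 to 12439 against 4370 to 4580 and Ddx4 and Mael detected on none of these arrays. Of 6 blood, endothelium and macrophage markers tested, 3 were higher and 0 lower, with a summed list of 968 to 1270 against 337 to 343 and Hbb-bh1, Hba-x and Ptprc detected on none. Of 18 proliferation genes tested, 15 were lower and 0 higher, with Birc5, survivin, which acts in mitosis, 3.67-fold lower, Top2a, the topoisomerase of dividing cells, 3.93-fold lower and Mcm3, a subunit of the replicative helicase, at least 2.20-fold lower. The part of other cell types and of the growth state in the PRC2 differences was not tested.

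The comparison of EpiSC with ESC set primed against naive pluripotency. Of the member probes tested, all but the brighter Ezh2 probe were called lower in EpiSC. The call of the dimmer Ezh2 probe was lost in some alternatives, and other PRC2 genes, given further below, moved in both directions. Eed was 10.5-fold lower (-3.39 ± 0.12, adjusted p = 1.1e-08), Mtf2 3.23-fold lower (-1.69 ± 0.10, adjusted p = 2.4e-07) and Suz12 2.79-fold lower (-1.48 ± 0.07, adjusted p = 7.5e-08). Jarid2, undetected in both EpiSC lines, was at least 4.82-fold lower (adjusted p = 4.7e-08). For these 4 probes both EpiSC arrays lay below all 4 ESC arrays. Ezh2 ILMN_1234171 differed by -0.15 ± 0.11 (95% interval -0.40 to 0.10, adjusted p = 0.28), with overlapping arrays.

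Ezh2 ILMN_2988572 was 1.48-fold lower (-0.57 ± 0.16, adjusted p = 0.011), a call lost without EpiT9 (adjusted p = 0.087), with scaling (0.12) and with the line as a random block (0.14). Without EpiT9, ILMN_1234171 was called lower (-0.44, adjusted p = 0.030), and without EpiE3 its difference was 0.14. In all, 5 of 6 probes were called lower and 0 higher, against 28.4% of all probes lower and 34.0% higher. Jarid2, detected in ESC alone, was tested only because of ESC and could only be lower against ESC. It therefore adds no support to this count or to the median. The median difference of the 6 was -1.58, against 0.06 over all probes. Each EpiSC line gave 1 array, so the spread of this group rests on 2 lines with no replicate of either. Of 8 core and naive pluripotency markers, 7 were lower in EpiSC and Pou5f1 was not called (0.01), and of 6 primed epiblast markers 5 were higher, where 62.9% of all genes tested were called in either direction.

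The comparison of PGC11.5 with ESC set germ cells of the embryo against naive pluripotent cells. Eed was 12.3-fold lower in PGC11.5 (-3.61 ± 0.12, adjusted p = 4.7e-09), Mtf2 2.83-fold lower (-1.50 ± 0.10, adjusted p = 3.3e-07) and Suz12 1.34-fold lower (-0.42 ± 0.07, adjusted p = 0.00038). Jarid2, undetected in PGC11.5, was at least 2.57-fold lower (adjusted p = 3.7e-08). In these 4 probes both PGC11.5 arrays lay below all 4 ESC arrays. The Suz12 call was lost when the line was made a random block (adjusted p = 0.058).

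The Ezh2 probes disagreed in sign between PGC11.5 and ESC. ILMN_2988572, undetected in PGC11.5, was at least 1.31-fold lower (fitted -1.30 ± 0.16, adjusted p = 4.3e-05), and this difference turned to 0.13 with scaling. ILMN_1234171 was 1.23-fold higher (0.29 ± 0.11, adjusted p = 0.039), with overlapping arrays. That higher call was lost without either ESCm array, without ESCf array 1 or without PGC11.5 array 1 (adjusted p = 0.062 to 0.11), on the authors' values (0.38), with scaling (0.42) and with the line as a random block (0.45). In all, 5 of 6 probes were called lower and 1 higher, against 34.4% lower and 34.2% higher over all probes, and the median of the 6 was -1.40, against -0.01. Here too Jarid2, tested only because of ESC, could only be lower and adds no support. The PGC11.5 arrays also carried embryonic globin RNA, a mark of primitive red blood cells, with Hba-x at 13.88 on array 1 and 7.22 on array 2, and a summed blood, endothelium and macrophage list of 21056 and 552. Its part in these differences was not tested. Without array 1 the differences from ESC of Eed, Mtf2, Suz12 and Jarid2 kept their direction. Array 2 also carried Hba-x, so leaving out array 1 cannot show the part of blood cells.

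Between PGC11.5 and EpiSC, Suz12 was 2.08-fold higher in PGC11.5 (1.06 ± 0.08, adjusted p = 2.8e-06). Eed (-0.23, 95% interval -0.54 to 0.08), Mtf2 (0.19, -0.06 to 0.43) and Jarid2 (undetected in both) were not called. Without PGC11.5 array 2, Eed was called lower (-0.49, adjusted p = 0.00011), and without array 1, Mtf2 was called higher (0.34, adjusted p = 0.0069). Ezh2 ILMN_1234171 was higher (0.44 ± 0.13, adjusted p = 0.015), a call lost without EpiE3 (adjusted p = 0.48), and ILMN_2988572 was lower (-0.74 ± 0.19, adjusted p = 0.0069), a difference that turned to 0.70 with scaling. Both of these Ezh2 calls were lost with a random block for the line (adjusted p = 0.31 and 0.13) and in a fit to only these arrays (0.11 and 0.25). In all, 3 of 6 probes were called, against 57.4% of all probes. Both of these comparisons share the PGC11.5 arrays, and the EpiSC and PGC11.5 comparisons with ESC share the ESC arrays.

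Between ESCf and ESCm, Ezh2 ILMN_1234171 (-0.58 ± 0.13, adjusted p = 0.013) and Eed (-0.57 ± 0.14, adjusted p = 0.020) were lower and Suz12 (0.30 ± 0.08, adjusted p = 0.035) higher in ESCf. Mtf2 (0.05, 95% interval -0.20 to 0.30) and Jarid2 (0.17, -0.16 to 0.51) were not called. In all, 3 of 6 probes were called, against 17.4% of all probes. Leaving out any 1 of the 4 arrays left 0 or 1 call, and each of the 3 calls was lost without at least 1 array.

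Across the 2 sets of arrays, the largest fitted difference of the 5 genes was that of Ezh2 ILMN_1234171. It was at least 24.5-fold lower in EG than in ESC, at least 30.0-fold lower in EG than in PGC11.5, at least 22.5-fold lower in hiEGL than in ESC and at least 27.6-fold lower in hiEGL than in PGC11.5. The other detectable Ezh2 probe ran the other way between EG and ESC, 1.63-fold higher in EG (0.70 ± 0.16, adjusted p = 0.0029), a call lost with the line as a random block (0.099) and with scaling (0.25). Between EG and PGC11.5 it was at least 2.13-fold higher in EG (fitted 2.01 ± 0.19, adjusted p = 3.8e-06), again opposite to ILMN_1234171, and this call was also lost with scaling. Mtf2 was 2.61-fold higher in EG than in ESC (1.38 ± 0.10, adjusted p = 4.5e-07), and Eed was 1.42-fold lower (-0.50 ± 0.12, adjusted p = 0.0034), a call lost with the line as a random block (0.16). Suz12 differed by 0.17 (95% interval 0.01 to 0.33, adjusted p = 0.056), was called higher without ESCf array 2 (0.21, adjusted p = 0.025) and in a fit to only these arrays (adjusted p = 0.026), and turned to -0.29 with scaling. In all, 5 of 6 probes were called between EG and ESC, against 72.4% of all probes. Jarid2 is among the called probes, and as a probe detected in ESC alone it could only be lower.

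Against PGC11.5, EG cells had 8.65-fold more Eed signal (3.11 ± 0.14, adjusted p = 1.5e-08), 7.38-fold more Mtf2 (2.88 ± 0.11, adjusted p = 5.9e-09) and more Suz12 (0.59 ± 0.08, adjusted p = 8.3e-05), with 6 of 6 probes called against 71.8% of all probes, 5 of them higher and Ezh2 ILMN_1234171 lower. The sixth, Jarid2, lay below background in both, and its call was lost with a random block for the line (adjusted p = 0.20) and in a fit to only these arrays (0.071). Against ESC, hiEGL cells were lower in all 6 probes (43.9% of all probes were lower), with Mtf2 4.40-fold, Eed 3.65-fold and Suz12 1.62-fold lower. Jarid2, detected in ESC alone, could only be lower and adds no support to this count. Against PGC11.5, hiEGL cells were higher in Eed (1.75 ± 0.12) and lower in Mtf2 (-0.64 ± 0.10) and Suz12 (-0.27 ± 0.07), with 4 of 6 probes called against 76.7% of all probes. The Suz12 call was lost with a random block for the line (adjusted p = 0.18).

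**Figure D3:**
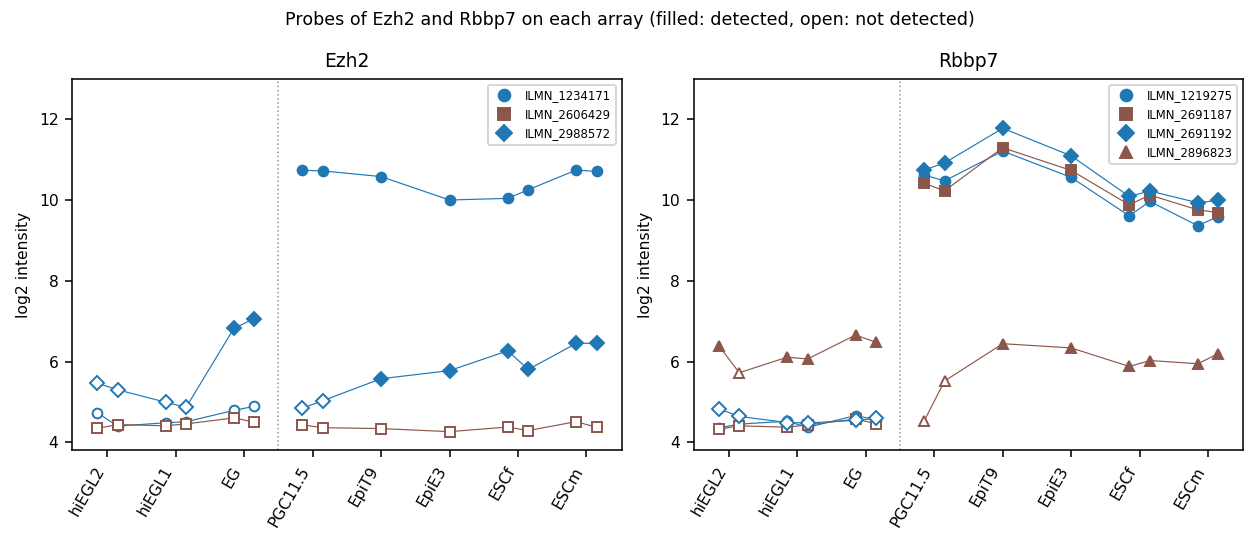
Log2 intensity (y axis) of the 3 probes of Ezh2 and the 4 of Rbbp7 on every array, ordered by group (x axis), filled where detected and open where not, with lines joining the arrays of a probe on each side of the dotted array divide. One Ezh2 probe and 3 Rbbp7 probes were near 4.5 on all 6 hiEGL and EG arrays and above 9 on the other 8.

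Probe agreement was examined for Ezh2 because the divide passes through it. Over the 8 arrays on which ILMN_1234171 was detected, its correlation with ILMN_2988572 was r = -0.24 (8 arrays, 5 groups), given as a description. This r includes values at background, since ILMN_2988572 was undetected on both PGC11.5 arrays (4.85 and 5.03), where ILMN_1234171 read 10.74 and 10.72. Rbbp7, the histone-binding subunit shared by PRC2 and other complexes, showed the same divide. Its probes ILMN_1219275, ILMN_2691187 and ILMN_2691192 were undetected on all 6 hiEGL and EG arrays and read 9.36 to 11.78 on the other 8. Its dimmer probe ILMN_2896823 read 6.40 and 5.72 in hiEGL2, the second undetected, 6.11 and 6.06 in hiEGL1 and 6.66 and 6.48 in EG, against 4.52 and 5.52 in PGC11.5, both undetected, 6.44 in EpiT9, 6.34 in EpiE3 and 5.88 to 6.19 on the 4 ESC arrays. The level of Ezh2 and Rbbp7 in EG and hiEGL cells relative to the other cells thus differs by probe, and the cause was not tested.

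**Figure D4:**
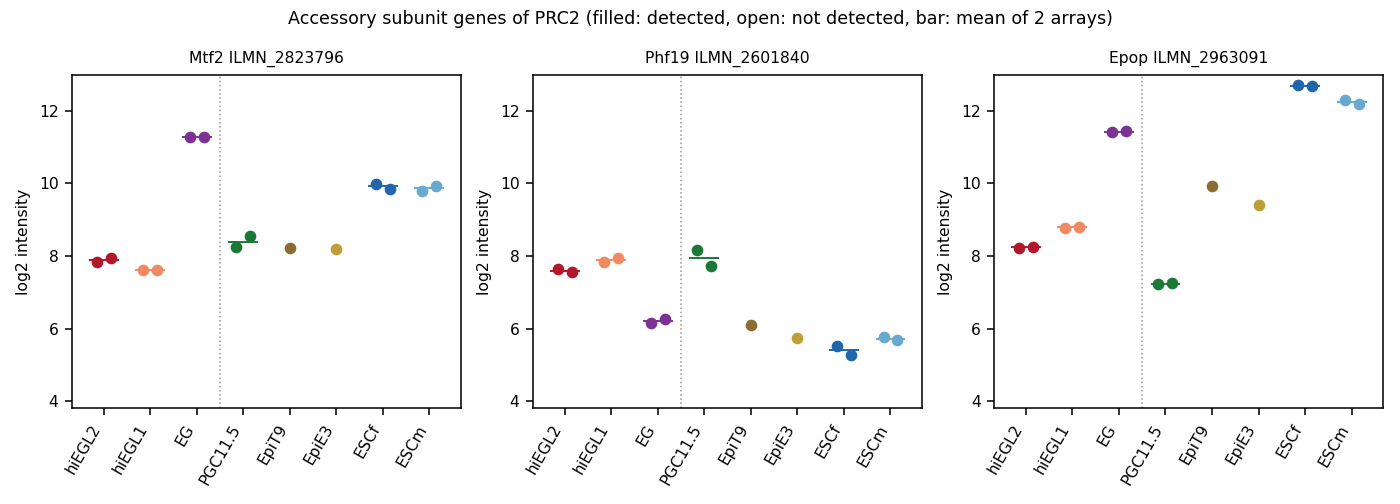
Log2 intensity (y axis) of the accessory subunit genes Mtf2, Phf19 and Epop on every array by group (x axis), filled points detected, bars the mean of 2 arrays. Phf19 read 7.55 to 7.94 on the 4 hiEGL arrays and 6.15 and 6.26 in EG, where Mtf2 was at its highest.

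The remaining subunits and cofactors of PRC2 numbered 10, of which 9 had a probe and 6 were tested. Phf19, a relative of Mtf2 that binds the same core, was called in the opposite direction to Mtf2 in hiEGL against EG and in PGC11.5 against ESC, but both were higher in EG than in ESC (Phf19 0.64, adjusted p = 0.0027). It read 7.64 and 7.55 in hiEGL2 and 7.84 and 7.94 in hiEGL1, against 6.15 and 6.26 in EG, 2.91-fold higher in hiEGL (1.54 ± 0.15, adjusted p = 7.8e-06). It read 8.16 and 7.72 in PGC11.5, against 5.53 and 5.28 in ESCf and 5.76 and 5.68 in ESCm, 5.21-fold higher in PGC11.5 (2.38 ± 0.15, adjusted p = 2.7e-07). It was not called between EpiSC, at 6.09 and 5.75, and ESC (0.36, adjusted p = 0.055). The arrays did not overlap in hiEGL against EG or in PGC11.5 against ESC.

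Epop, a partner of the Mtf2 form of the complex in embryonic stem cells, was lower beside Mtf2 in hiEGL against EG, EpiSC against ESC and PGC11.5 against ESC. It had the opposite sign to Mtf2 in EG against ESC (Epop -1.04, Mtf2 1.38) and in hiEGL against PGC11.5 (Epop 1.28, Mtf2 -0.64), and in PGC11.5 against EpiSC it was lower (-2.44), where Mtf2 was not called. It read 8.23 and 8.26 in hiEGL2 and 8.78 and 8.80 in hiEGL1, against 11.42 and 11.44 in EG, 7.52-fold lower in hiEGL (-2.91 ± 0.06, adjusted p = 5.9e-10). It read 9.94 in EpiT9 and 9.41 in EpiE3, against 12.71 and 12.68 in ESCf and 12.30 and 12.18 in ESCm, 6.93-fold lower in EpiSC (-2.79 ± 0.06, adjusted p = 3.1e-10). PGC11.5 read 7.23 and 7.25, 37.6-fold below ESC (-5.23 ± 0.06, adjusted p = 8.2e-12), the lowest of the 8 groups. Aebp2, a partner of the Jarid2 form, was detected on all ESC and EpiSC arrays, on 1 of 2 PGC11.5 arrays and on no hiEGL or EG array by its brightest probe. Ezh1, the alternative methyltransferase, was detected on 3 arrays by its brightest probe, at 5.20 on each EpiSC array and 6.36 on PGC11.5 array 2. Rbbp7 was higher than in ESC both in EpiSC (1.38 ± 0.10, adjusted p = 9.6e-07) and in PGC11.5 (0.77 ± 0.10, adjusted p = 4.4e-05), by its brightest probe, whereas ILMN_2896823 was undetected in PGC11.5 and detected in ESC. Ezhip, an inhibitor of PRC2, was detected on PGC11.5 array 2 (6.77) and both ESCf arrays (5.26 and 5.30) and on no other. It was at least 1.84-fold higher in PGC11.5 than in EpiSC (adjusted p = 0.015) and lower in hiEGL than in PGC11.5 (-1.22, adjusted p = 0.014), both resting on a PGC11.5 pair that read 4.89 and 6.77, and was not called between PGC11.5 and ESC (0.68, adjusted p = 0.14). Phf1, Lcor and Lcorl were detected on too few arrays to be tested, and Rbbp4 has no probe listed. Of the 6 genes tested, 1 was higher and 1 lower in hiEGL than in EG, 2 higher and 1 lower in EpiSC than in ESC, and 3 higher and 2 lower in PGC11.5 than in ESC, against 61.1%, 62.9% and 68.5% of all genes called in either direction.

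PRC1, the complex that reads H3K27me3 and ubiquitinates histone H2A, changed in both directions. Of 16 PRC1 genes tested, 8 were higher and 6 lower in hiEGL than in EG, 6 higher and 7 lower in EpiSC than in ESC, and 10 higher and 5 lower in PGC11.5 than in ESC, against 61.1%, 62.9% and 68.5% of all genes called. Phc1, a polyhomeotic subunit, was 3.86-fold lower and its relative Phc2 3.70-fold higher in hiEGL than in EG. Rnf2, the main ubiquitin ligase of PRC1, was 5.74-fold lower in EpiSC (-2.52 ± 0.16, adjusted p = 5.3e-07) and at least 3.93-fold lower in PGC11.5 (adjusted p = 3.1e-07) than in ESC. Ring1, its paralogue, was 2.73-fold higher in EpiSC. L3mbtl2, a subunit of a variant PRC1, was lower in all 3 comparisons, by 3.33-fold, 2.42-fold and 2.89-fold. The median difference of the list was 0.20, -0.23 and 0.59 on the log2 scale, against -0.04, 0.07 and -0.01 over all genes tested.

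Trithorax and H3K4 methylation genes, whose products act against Polycomb silencing, numbered 9 tested. In hiEGL against EG, 1 was higher and 6 lower, with Ash2l 4.06-fold, Dpy30 3.48-fold and Wdr5 3.25-fold lower, all core subunits of the H3K4 methyltransferases. In EpiSC against ESC 3 were higher and 4 lower, and in PGC11.5 against ESC 5 were higher and 1 lower, with Setd1a, a methyltransferase subunit, 4.68-fold higher. The shares of all genes called were again 61.1%, 62.9% and 68.5%, so the last count lies near its background. The medians were -0.47, -0.18 and 0.24, against -0.04, 0.07 and -0.01 over all genes tested.

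Developmental regulators known as PRC2 targets in ESC were counted next. Of 27 such genes with a probe, 13 were detected on enough arrays to be tested, against 9081 of 16593 genes on the array, so those tested are the ones expressed somewhere and their counts do not describe the whole list. Of the 13, 8 were undetected on all EG and ESC arrays and so were tested only because hiEGL, EpiSC or PGC11.5 detected them. Above background, such genes could only be higher than in EG or ESC. The direction of the counts and medians below was thus partly set by the filter. In hiEGL against EG, 8 were higher and 1 lower, against 61.1% of all genes called in either direction. Of the 13, 6 lay below background in both, and among the other 7 all 7 calls were higher and 0 lower. Wnt5a, a signalling ligand, was at least 8.02-fold higher, Wt1, a factor of the early gonad, at least 6.87-fold and Gata6, an endoderm factor, at least 5.08-fold higher in hiEGL, where the fibroblast and gonadal somatic markers were also higher. Wt1 is itself among the gonadal somatic markers tested. In EpiSC against ESC, 8 were higher and 2 lower, with Irx3 at least 6.21-fold, Foxa2 at least 2.65-fold and Lhx1 at least 2.58-fold higher, and Cdkn2a, an inhibitor of the cell cycle, at least 3.07-fold lower. In PGC11.5 against ESC, 6 were higher and 1 lower, with Lhx1 at least 10.4-fold, Msx1 at least 6.84-fold and Msx2 at least 2.83-fold higher, and Eomes at least 1.08-fold lower. For EpiSC and PGC11.5 the shares of all genes called were 62.9% and 68.5%. The medians over the 13 were 1.12, 0.82 and 0.79, against -0.04, 0.07 and -0.01 over all genes tested.

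Proliferation genes, in contrast to the 15 of 18 lower in hiEGL than in EG, moved both ways elsewhere. In EpiSC against ESC 8 were higher and 4 lower, and in PGC11.5 against ESC 11 were higher and 5 lower, against 62.9% and 68.5% of all genes called, so the EpiSC count lies near its background. Cdk1, the mitotic kinase, was 1.94-fold higher in EpiSC, where Pcna, the replication clamp, fell by 3.70 on the log2 scale. Mcm6 was 28.7-fold lower in EpiSC, but it was undetected in EpiE3, so its mean includes a value at background. E2f1 was 2.42-fold higher in PGC11.5 than in ESC, where Pcna was 13.6-fold lower. The medians were -1.25, 0.12 and 0.41, against -0.04, 0.07 and -0.01 over all genes tested.

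The likeness between members was taken as Pearson's r over the 14 arrays after centring each probe within the 6 and within the 8 arrays, which share group means and array quality, so it is a description. Eed and Jarid2 had r = 0.97, Mtf2 and Ezh2 ILMN_2988572 0.91, Suz12 and Mtf2 0.78, and Eed and Mtf2 0.71. Ezh2 ILMN_1234171 had r = -0.06 to 0.28 with the other member probes. Among 9080 other genes, the 3 most like Eed were Cacybp (0.991), Psmc6 (0.991) and Rnf2 (0.991), those most like Jarid2 were Ubxn2a (0.993), Stmn1 (0.993) and Brd8 (0.991), and those most like Mtf2 were Cabs1 (0.988), Tmem39a (0.987) and Itga11 (0.982). Those most like Suz12 were Mreg (0.981), Ooep (0.977) and Tdrp (0.977), and those most like Ezh2 ILMN_1234171 were Zfp846 (0.865), Cul3 (0.857) and Cetn3 (0.847).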

How the data were processed

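Signals of 14 mouse Illumina bead arrays were used. For every probe and array, the main deposited table gives an intensity on a linear scale and a detection p-value, per the file headers. A second deposited table of the authors gives log2 intensities, used as an alternative. The submitters' processing notes name BeadStudio 3.2, RMA and lumi, and the labels' protocols describe in vitro transcriptions of 18 h and 12 h for every sample. Their order and settings were not given in the sources.

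Of 25697 probes, 23978 had 1 gene in the platform annotation, 0 had several, and the 1719 with none were left out. Intensities were background corrected with a normal-exponential model from the detection p-values and quantile normalized on the log2 scale with an offset of 16 (neqc, limma 3.58.1, R 4.3.3). Probes detected (p under 0.01) on at least 2 arrays were tested, 12404 probes of 9081 genes. limma fitted 8 group means with a variance trend (6 residual degrees of freedom), lines weighted equally, and p-values were adjusted by Benjamini and Hochberg over all probes tested, with a threshold of 0.05. Genes of lists are represented by their brightest tested probe. Where a probe was detected in 1 of the cell types compared, its fold is at least the bright mean over the mean, per array, of the higher of the lowest detected signal and the dim probe's own value. Where only some arrays of a cell type detected a probe, its mean includes values at background. The number of arrays limits the precision. Tables and figures were made with Python 3.11.15, pandas 2.3.3, numpy 2.4.6 and matplotlib 3.10.9.

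The members, gene lists and tests were chosen with earlier results of these data known. Every member probe is named. Genes that could be named were up to 3 called genes per list, direction and comparison, any gene of lists of up to 10, and the 3 most alike genes per member. On simulated data for hiEGL against EG (12404 probes, 200 of them changed), 74% of 2-fold and 95% of 4-fold changes were recovered, with 10 false calls. The simulated noise was independent between arrays, with no effect of line. In the data 55.6% of probes were called, so these rates need not hold there. Alternatives were another background, scaling, the authors' values, filters, probe summaries, the line or replicate number as a block, a fit to the compared arrays, a 2-fold threshold and each array left out.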

Additional observations from a re-analysis of the deposited data

How the results depend on the processing

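Among the counts of called member probes, 113 of 126 alternatives other than leaving out an array stayed within 1.5 times the reported count. A 2-fold threshold gave 3 called probes for hiEGL against EG (27.2% of all probes), 3 for hiEGL1 against EG (28.6%) and 3 for hiEGL2 against EG (27.8%). It gave 3 for EG against ESC (41.4%) and 2 for hiEGL against PGC11.5 (52.9%). For PGC11.5 against EpiSC it gave 1 (27.3%) and for ESCf against ESCm 0 (3.71%). With the line as a random block (consensus correlation 0.59) 3 probes were called for EG against ESC (46.5% of all probes), 4 for hiEGL against EG (29.8%) and 1 for PGC11.5 against EpiSC (29.3%). The last comparison also gave 1 with the mean of a gene's probes (57.5% of all genes) and 1 in a fit to its own arrays (12.5% of all probes). For hiEGL2 against hiEGL1, such a fit gave 4 (42.7%) and scaling gave 3 (24.2%). Leaving out 1 array at a time gave 4 to 6 calls for hiEGL against EG, 4 to 4 for hiEGL1 against EG, 4 to 6 for hiEGL2 against EG, 5 to 5 for EpiSC against ESC, 0 to 1 for ESCf against ESCm, 5 to 6 for PGC11.5 against ESC, 2 to 4 for PGC11.5 against EpiSC, 5 to 6 for EG against ESC and 5 to 6 for EG against PGC11.5. Same-numbered arrays did not deviate together (r = -0.027 to 0.022 over 15 pairs, 0 over 0.1), so the replicate numbers pair nothing. The replicate block gave 5 calls for hiEGL against EG (55.4% of all probes), 4 for hiEGL1 against EG (52.3%) and 5 for PGC11.5 against ESC (68.1%). It left the other counts with such a fit as reported. It was not run for EpiSC against ESC or PGC11.5 against EpiSC.

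Scaling to a common median moved the median difference of all probes to 0.46 for hiEGL against EG, 0.24 for hiEGL1 against EG, 0.64 for hiEGL2 against EG, 0.40 for hiEGL2 against hiEGL1, 0.17 for EpiSC against ESC, 0.81 for PGC11.5 against ESC, 0.70 for PGC11.5 against EpiSC, -0.94 for EG against PGC11.5, 0.31 for hiEGL against ESC and -0.61 for hiEGL against PGC11.5. The share of higher among called probes moved to 64.6% (reported 44.8%) for hiEGL against EG, 73.3% (43.6%) for hiEGL2 against EG, 68.4% (47.0%) for hiEGL2 against hiEGL1, 60.5% (50.1%) for ESCf against ESCm, 75.8% (49.9%) for PGC11.5 against ESC, 77.1% (46.0%) for PGC11.5 against EpiSC, 24.8% (54.6%) for EG against PGC11.5, 57.8% (47.2%) for hiEGL against ESC and 31.1% (52.0%) for hiEGL against PGC11.5. With scaling, Ezh2 ILMN_1234171 turned to 0.45, 0.051 and 0.85 and Jarid2 to 0.38, 0.012 and 0.74 in hiEGL, hiEGL1 and hiEGL2 against EG, and Jarid2 to 0.73 in hiEGL2 against hiEGL1. Ezh2 ILMN_2988572 turned to 0.13 in PGC11.5 against ESC, 0.70 in PGC11.5 against EpiSC and -0.82 in hiEGL against PGC11.5. Jarid2 turned to -1.38 in EG and -1.004 in hiEGL against PGC11.5, and Suz12 to -0.29 in EG against ESC. All but the Suz12 value involve a probe undetected in at least 1 of the cell types, and the cause was not tested.

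The mean of the Ezh2 probes gave -0.33 in PGC11.5 against ESC and -0.067 in PGC11.5 against EpiSC. Leaving out an array turned these uncalled differences: Mtf2 in ESCf against ESCm, -0.018 to 0.12 (turned without ESCf 1 or ESCm 1); Ezh2 ILMN_1234171 in EpiSC against ESC, -0.44 to 0.14 (without EpiE3), and in hiEGL2 against hiEGL1, -0.095 to 0.24 (without hiEGL2 1). In PGC11.5 against EpiSC, Eed ran from -0.49 to 0.035 (turned without PGC11.5 1) and Jarid2 from -0.047 to 0.20 (without PGC11.5 2). Jarid2 also ran from -0.10 to 0.15 in hiEGL against PGC11.5 (turned without PGC11.5 1 or hiEGL2 1) and from -0.18 to 0.012 in hiEGL2 against hiEGL1 (without hiEGL2 2). Over all probes, the line as a random block lowered the share called to 29.8% for hiEGL against EG, 38.2% for EpiSC against ESC, 41.9% for PGC11.5 against ESC, 29.3% for PGC11.5 against EpiSC and 46.5% for EG against ESC. A fit to the compared arrays gave 42.7% for hiEGL2 against hiEGL1, 3851 of 12404 probes for ESCf against ESCm and 12.5% for PGC11.5 against EpiSC, and leaving out an array 14.7% to 16.5% and 8.05% to 9.89% for the first pair of these. The 2-fold threshold gave 27.2% for hiEGL against EG, 27.8% for EpiSC against ESC and 36.3% for PGC11.5 against ESC. Levels at background limit what can be said of Jarid2 outside ESC and of Ezh2 in hiEGL cells.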

Other observations

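The enzymes that remove H3K27me3 were measured beside the complex that places it. Kdm6b, an H3K27 demethylase, read 9.26 and 9.41 in hiEGL2 and 8.69 and 8.75 in hiEGL1, against 7.92 and 7.93 in EG, 2.15-fold higher in hiEGL (log2 difference 1.11 ± 0.10 SE, limma adjusted p = 4.2e-06). It was undetected in PGC11.5, at 4.53 and 4.63, against 7.54 to 7.96 on the 4 ESC arrays, at least 3.74-fold lower (adjusted p = 3.4e-09). EpiT9 read 7.04 and EpiE3 8.09, with no call against ESC (-0.20, adjusted p = 0.11). Its second probe, ILMN_3095624, was undetected in EG and in PGC11.5, was detected on 1 of 4 hiEGL arrays at 5.79, and read 7.45 in EpiT9 and 7.55 in EpiE3, above the 6.35 to 6.68 of the 4 ESC arrays. Kdm6a, the X-linked demethylase, differed by -0.33 in hiEGL against EG (adjusted p = 0.0096) and by -0.25 in PGC11.5 against ESC (adjusted p = 0.034). Uty, its Y-linked relative, was dim, lay below background in hiEGL and EG, and was undetected in PGC11.5. Its difference from ESC there was -0.80 (adjusted p = 0.0073), and 3 of 4 ESC arrays detected it. Those arrays must include an ESCf array, although ESCf is female, and the cause was not tested.

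Histone H3K9 methyltransferases, which place another repressive mark, had 3 genes tested. Ehmt2 was 1.72-fold higher and Ehmt1 1.93-fold and Setdb1 2.08-fold lower in hiEGL than in EG. In EpiSC against ESC, Ehmt2 was 1.62-fold lower and Ehmt1 1.37-fold higher, and Setdb1 was not called (-0.11, adjusted p = 0.42). In PGC11.5 against ESC, Setdb1 was 1.74-fold higher and Ehmt2 1.25-fold lower, and Ehmt1 was not called (-0.14, adjusted p = 0.19).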
